A study of Mus musculus with 6 samples.

Results

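The urokinase and plasminogen activation genes described here are 8 listed members, Plau, Plat, Plg, Plaur, Serpinb2, Serpine2, Serpinf2 and Thbs1, taken by gene symbol from a deposited expression table of 21959 mouse genes. All 8 were found in the table, and all 8 passed the filter on low values, Plg through the GPR35-negative libraries. The table holds 6 RNA-seq libraries labelled as neutrophils and belonging to a study of mouse tumours grown from Hepa1-6, a hepatoma line. The libraries form 2 groups, GPR35-positive cells (3 libraries) and GPR35-negative cells (3 libraries), where GPR35 is a G protein-coupled receptor. The labels give no mouse strain, age, treatment or sorting procedure. They do not say that replicates came from separate animals, so each p-value reflects only how far these samples varied, and that variation may be technical.

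Plasmin is the protease that dissolves fibrin and also cuts other matrix proteins. It circulates as the liver-made zymogen plasminogen and is released by either of a pair of serine proteases, the urokinase-type activator uPA and the tissue-type activator tPA. uPA binds its own receptor, uPAR, on the surface of leukocytes and tumour cells, which places plasmin formation at the cell surface, and serpins restrain both the activators and plasmin. In myeloid cells the uPA and uPAR pair is known for its part in adhesion and migration.

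The libraries differed widely in marker transcripts of several cell types. Gpr35 itself ranged from 18.2 to 21.9 FPKM in the GPR35-positive and from 1.30 to 2.03 FPKM in the GPR35-negative libraries, where FPKM is a fragment count divided by gene length and library depth. Summed FPKM of 13 mature neutrophil markers, of which 13 were called higher, ranged from 9330 to 10286 in GPR35-positive and from 836 to 1088 in GPR35-negative libraries. Summed FPKM of 11 macrophage and monocyte markers ranged from 684 to 729 in GPR35-positive and from 18.3 to 27.7 in GPR35-negative libraries. The 10 hepatocyte and hepatoma markers, all of them called lower, summed to between 16418 and 16816 FPKM in GPR35-positive and between 24667 and 25975 FPKM in GPR35-negative libraries. Over all 10060 genes tested, 23.3% were called higher and 45.5% lower. Depth was alike, with 15742743 to 18314104 reads assigned to genes in a library. In such bulk samples, fewer cells of a type and less RNA per cell cannot be told apart.

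uPA and its receptor, together with the serpin gene Serpinb2, were higher in GPR35-positive libraries, while the genes of tPA and of the plasmin inhibitor alpha-2-antiplasmin were lower. In mean FPKM, Plau was 11.4-fold, Serpinb2 3.48-fold and Plaur 3.09-fold higher in GPR35-positive libraries, and the GPR35-positive level was 0.698 of the GPR35-negative one for Plat and 0.670 for Serpinf2. Plg, Serpine2 and Thbs1 did not pass the test. Of the 8 members, 3 were called higher, against a background of 23.3% of the 10060 genes tested, and 2 were called lower, against a background of 45.5%. The GPR35-positive and GPR35-negative values did not overlap for 5 of the 8, against 72.5% of all genes tested. The median log2 fold change was −0.05 over the 8 members and −0.19 over all genes tested. A call here means a Benjamini-Hochberg adjusted p below 0.05 over all genes tested in limma, on log2(FPKM + 1), a scale that understates the change of low genes. With median-of-ratios scaling the all-gene median moved to −0.03 and 54.8% of calls were higher, against 33.9% as deposited, and the same counts of 3 and 2 members were called. Relative to the all-gene median as deposited, the log2 fold changes were 3.31 for Plau, 1.83 for Plaur, 1.45 for Serpinb2, −0.32 for Plat and −0.38 for Serpinf2.

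**Figure D1:**
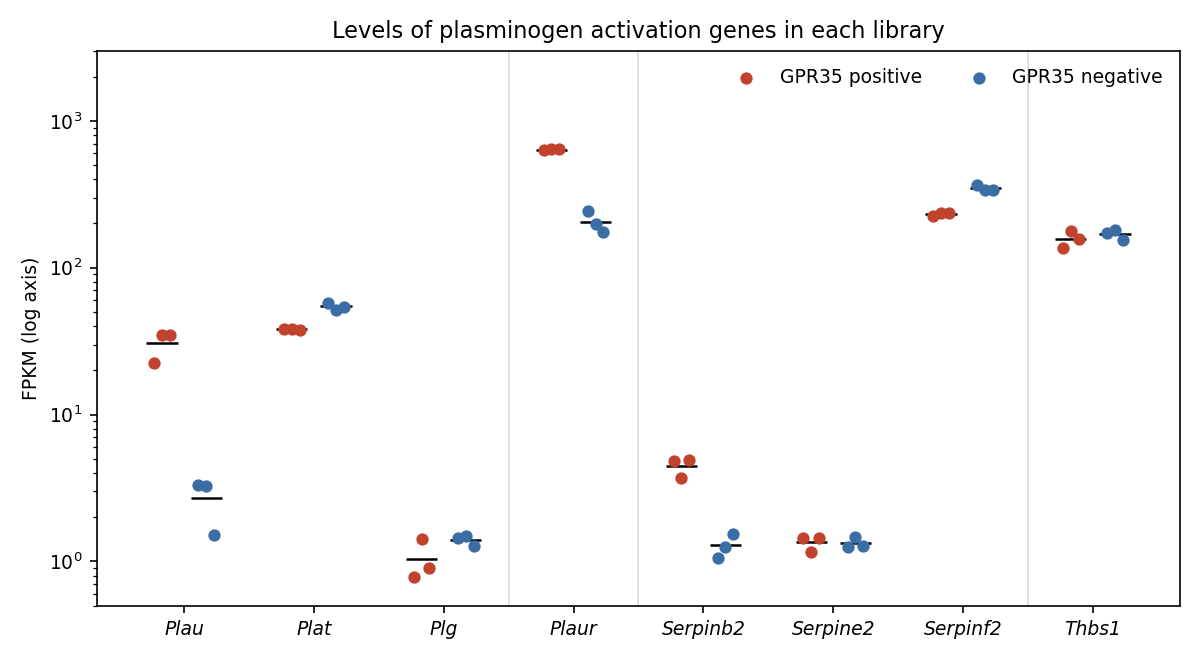
FPKM on a log axis of the 8 members in each library, with GPR35-positive libraries (red) left of GPR35-negative ones (blue), points for libraries and bars for group means. Plau, Plaur and Serpinb2 sit higher in all GPR35-positive libraries, Plat and Serpinf2 sit lower, and Plg, Serpine2 and Thbs1 overlap between the groups.

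Plau, which encodes uPA (ENSMUSG00000021822, chromosome 14, 20836660 to 20843385, forward strand, GRCm38), differed most. It had 22.6, 34.9 and 34.8 FPKM in the 3 GPR35-positive libraries and 3.31, 3.27 and 1.50 FPKM in the 3 GPR35-negative ones. Every GPR35-positive value was above every GPR35-negative one, and GPR35-positive replicate 1 and GPR35-negative replicate 3 each stood below the other libraries of their group. Means were 30.8 ± 7.06 FPKM in GPR35-positive and 2.69 ± 1.03 FPKM in GPR35-negative libraries (SD, n = 3 each). The log2 fold change was 3.12 (SE 0.22, limma adjusted p = 6.54e-07) and ranked 113 of 10060 from the highest. The low values rested on 135, 131 and 56 reads per GPR35-negative library, and the exact 95% Poisson interval of the smallest of these, which covers counting error only, ran from 42.3 to 72.7 reads.

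Plat, which encodes tPA (ENSMUSG00000031538, chromosome 8, 22757727 to 22782844, forward strand), moved the other way. It had 38.1, 38.1 and 37.8 FPKM in the 3 GPR35-positive libraries and 57.9, 51.6 and 53.9 FPKM in the 3 GPR35-negative ones. The GPR35-positive libraries were nearly equal to each other and all below the GPR35-negative ones. Its log2 fold change was −0.51 (SE 0.07, limma adjusted p = 0.000111). Plat is known as an endothelial product. The 8 endothelial markers summed to between 6.17 and 7.13 FPKM in GPR35-positive and between 3.53 and 4.23 FPKM in GPR35-negative libraries, with Pecam1 at 4.24 ± 0.422 FPKM in GPR35-positive and 3.21 ± 0.358 FPKM in GPR35-negative libraries as most of the sum (SD, n = 3 each). Eng, the endoglin gene, which passed the filter only through the GPR35-positive libraries, had 1.29 ± 0.0959 FPKM there and 0.513 ± 0.0983 FPKM in GPR35-negative libraries, and Cdh5, which encodes VE-cadherin, was listed at 0 in all 3 GPR35-negative libraries. Of the 8 endothelial markers, only Pecam1 and Eng passed the filter, so the sum says little about the other 6. The part of these markers in the Plat level was not tested. The Plat level was 0.698 of that in GPR35-negative libraries beside 0.654 for the summed hepatocyte and hepatoma markers.

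Plg, the gene of the zymogen plasminogen (ENSMUSG00000059481, chromosome 17, 12378608 to 12419385, forward strand), was at a low level in every library. It had 0.786, 1.42 and 0.898 FPKM in the 3 GPR35-positive libraries and 1.44, 1.49 and 1.27 FPKM in the 3 GPR35-negative ones. GPR35-positive replicate 2 lay among the GPR35-negative values, so the groups overlapped. These values stood on 50, 86 and 61 reads in GPR35-positive and 92, 94 and 74 reads in GPR35-negative libraries. The log2 fold change was −0.25 (95% interval −0.50 to 0.00, limma adjusted p = 0.0703). Without GPR35-positive replicate 2 it was −0.38 and passed (limma adjusted p = 0.00491). Plg reached 1 FPKM in all 3 GPR35-negative libraries but only in replicate 2 of the GPR35-positive ones. It thus passed the filter through the group where it was higher, which limits what this pass can show. The end of Plg overlaps Slc22a3 on the opposite strand, and the sources used here do not say whether counting was stranded.

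Plaur, the gene of the uPA receptor uPAR (ENSMUSG00000046223, chromosome 7, 24462484 to 24475968, forward strand), was the most abundant member in GPR35-positive libraries. It had 633, 638 and 641 FPKM in the 3 GPR35-positive libraries and 245, 200 and 175 FPKM in the 3 GPR35-negative ones. The groups were far apart, and the spread was smaller among GPR35-positive libraries (coefficient of variation 0.642%) than among GPR35-negative ones (17.1%). Plaur had a log2 fold change of 1.64 (SE 0.11, limma adjusted p = 3.57e-07), which ranked 579 of 10060 from the highest. By mean FPKM, Plaur ranked 58 of 10060 in GPR35-positive and 242 in GPR35-negative libraries. It was therefore among the abundant transcripts of both groups, although 7 pan-leukocyte markers summed to between 1382 and 1448 FPKM in GPR35-positive and between 120 and 181 FPKM in GPR35-negative libraries.

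Serpinb2, which encodes PAI-2, an inhibitor of uPA and tPA made by activated macrophages (ENSMUSG00000062345, chromosome 1, 107511423 to 107535478, forward strand), was higher at a low level. It had 4.85, 3.70 and 4.88 FPKM in the 3 GPR35-positive libraries and 1.06, 1.26 and 1.54 FPKM in the 3 GPR35-negative ones. No GPR35-negative library reached the lowest GPR35-positive one. Serpinb2 had a log2 fold change of 1.26 (SE 0.11, limma adjusted p = 5.81e-06) on 142 to 210 reads per library in GPR35-positive and 43 to 57 in GPR35-negative libraries. Limma-voom on recovered reads, which adds a smaller constant and also rescales the libraries, gave 2.02 (adjusted p = 3.17e-06). A pseudocount of 0.1 without rescaling gave 1.73 (limma adjusted p = 1.10e-05). Serpinb2 shares part of its span with Serpinb10 on the same strand, so reads there may have been lost or assigned to either gene.

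Serpinf2, which encodes alpha-2-antiplasmin, the liver-made inhibitor of plasmin (ENSMUSG00000038224, chromosome 11, 75431732 to 75439591, reverse strand), was abundant in every library. It had 226, 234 and 237 FPKM in the 3 GPR35-positive libraries and 363, 338 and 339 FPKM in the 3 GPR35-negative ones. The groups did not overlap, and the gap between them exceeded the spread within either. Serpinf2 had a log2 fold change of −0.57 (SE 0.06, limma adjusted p = 2.81e-05), beside a median of −0.62 over the 10 hepatocyte and hepatoma markers.

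Serpine2, which encodes protease nexin 1, an inhibitor of thrombin, uPA and plasmin (ENSMUSG00000026249, chromosome 1, 79794197 to 79861180, reverse strand), had 1.44, 1.15 and 1.45 FPKM in the 3 GPR35-positive libraries and 1.25, 1.47 and 1.26 FPKM in the 3 GPR35-negative ones. The libraries of both groups were interleaved. The log2 fold change was 0.01 with a 95% interval of −0.18 to 0.20 (limma adjusted p = 0.910). Its direction turned under 4 of the 6 fits that left out 1 library, with values from −0.02 to 0.07 over the 6. Summed FPKM of 9 fibroblast and stellate cell markers, a known source of this serpin, ranged from 33.6 to 40.2 in GPR35-positive and from 13.9 to 18.9 in GPR35-negative libraries, and none was at 0 in every library. The largest difference among them was in Acta2, with a mean of 13.8 FPKM in GPR35-positive and 2.21 FPKM in GPR35-negative libraries. Pdgfra alone was lower, with means of 0.511 FPKM in GPR35-positive and 0.632 FPKM in GPR35-negative libraries. The part of these markers in the Serpine2 level was not tested.

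Thbs1, which encodes thrombospondin 1, a matrix glycoprotein that binds plasminogen and plasmin and activates latent TGF-beta (ENSMUSG00000040152, chromosome 2, 118111876 to 118127133, forward strand), was abundant and overlapped between the groups. It had 137, 177 and 156 FPKM in the 3 GPR35-positive libraries and 171, 179 and 154 FPKM in the 3 GPR35-negative ones. Only GPR35-positive replicate 1 lay outside the range of the GPR35-negative libraries. The log2 fold change was −0.11 with a 95% interval of −0.33 to 0.11 (limma adjusted p = 0.341), and its sign turned to 0.09 with median-of-ratios scaling and 0.11 with limma-voom. Platelets store this protein. The sum of 7 platelet and megakaryocyte markers ranged from 70.3 to 74.0 FPKM in GPR35-positive and from 61.7 to 80.7 FPKM in GPR35-negative libraries. Most of it was Ppbp, a platelet chemokine gene, at 52.8 ± 1.30 FPKM in GPR35-positive and 67.3 ± 9.13 FPKM in GPR35-negative libraries (SD, n = 3 each). Pf4, the gene of platelet factor 4, had 18.3 ± 0.868 FPKM in GPR35-positive and 2.27 ± 0.689 FPKM in GPR35-negative libraries. Tubb1 had 0.903 ± 0.217 FPKM in GPR35-positive and 0.331 ± 0.106 FPKM in GPR35-negative libraries, and Gp1bb, which encodes a platelet receptor subunit, was listed at 0 in all 6 libraries. Their part in the Thbs1 level was not tested. An antisense gene, Gm29233, lies within Thbs1, and its reads may not have been told apart.

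The order of the members by FPKM, which is scaled to gene length, differed between the groups. In GPR35-positive libraries it ran Plaur, Serpinf2, Thbs1, Plat, Plau, Serpinb2, Serpine2 and Plg, and neighbours overlapped only at Serpine2 and Plg. In GPR35-negative libraries it ran Serpinf2, Plaur, Thbs1, Plat, Plau, Plg, Serpine2 and Serpinb2. There Plaur and Thbs1 overlapped, and so did the neighbours among Plg, Serpine2 and Serpinb2.

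**Figure D2:**
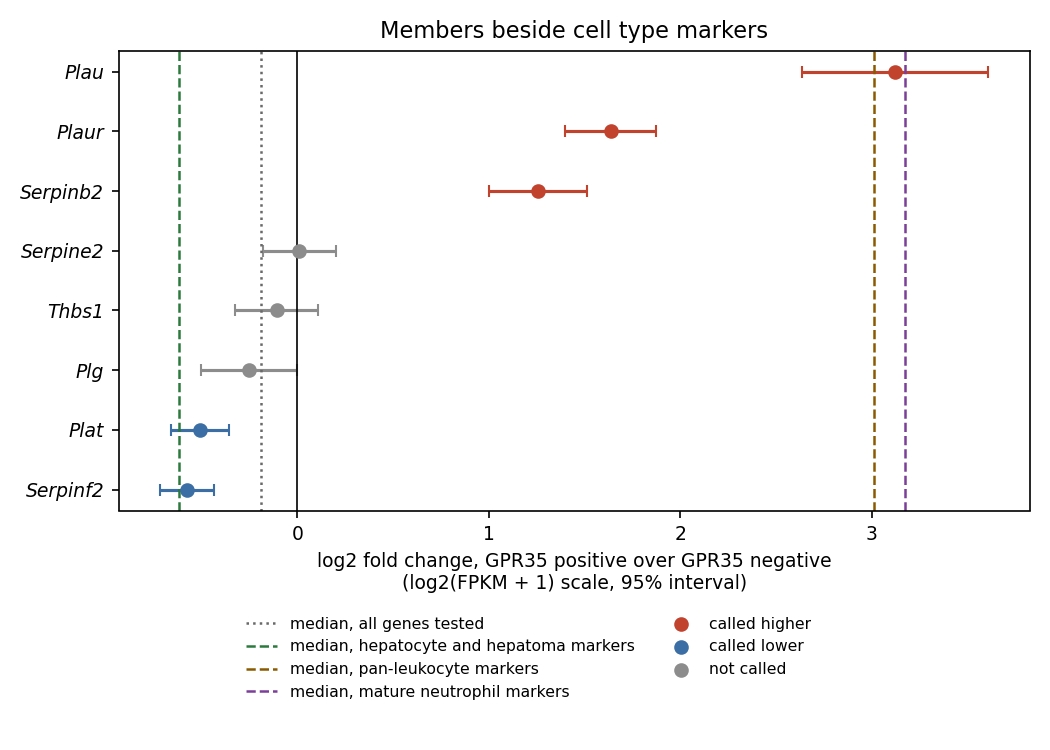
Log2 fold changes of the 8 members, GPR35-positive over GPR35-negative libraries, on the log2(FPKM + 1) scale with 95% intervals from limma, and vertical lines for the medians of all genes tested (−0.19), of hepatocyte and hepatoma markers (−0.62), of pan-leukocyte markers (3.01) and of mature neutrophil markers (3.17). Plau lies at the leukocyte medians, Plaur and Serpinb2 lie below them, and Serpinf2 and Plat lie near the hepatocyte median.

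Promoter letters are shown for the called members that have an entry in the sequence table, so that the start regions of genes that moved in opposite directions can be read side by side. RefSeq sequences of build GRCm38.p6 had an entry for 4 of the 8 members, Plaur, Serpinb2, Serpinf2 and Serpine2. Each line gives the 250 bases before the annotated start, 5′ to 3′ on the strand of the gene, for Plaur (called higher, chr7:24462233-24462482, forward), Serpinb2 (called higher, chr1:107511173-107511422, forward, the first of 2 listed starts) and Serpinf2 (called lower, chr11:75439502-75439751, reverse). Capitals mark matches on either strand to the letters TGANTCA (AP-1), TTGCNNAA (C/EBP), GAGGAA (the core of PU.1) or GGGCGG (SP1).
Plaur: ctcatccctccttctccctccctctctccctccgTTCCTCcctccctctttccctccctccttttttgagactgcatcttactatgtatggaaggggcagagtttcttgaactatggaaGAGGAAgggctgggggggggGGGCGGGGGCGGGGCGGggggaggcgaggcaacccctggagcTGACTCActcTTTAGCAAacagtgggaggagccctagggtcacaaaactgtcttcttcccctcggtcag
Serpinb2: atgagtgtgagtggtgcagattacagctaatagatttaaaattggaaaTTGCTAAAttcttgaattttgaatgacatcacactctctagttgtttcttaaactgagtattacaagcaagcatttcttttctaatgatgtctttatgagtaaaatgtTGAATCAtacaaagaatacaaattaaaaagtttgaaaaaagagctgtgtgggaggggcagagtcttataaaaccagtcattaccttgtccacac
Serpinf2: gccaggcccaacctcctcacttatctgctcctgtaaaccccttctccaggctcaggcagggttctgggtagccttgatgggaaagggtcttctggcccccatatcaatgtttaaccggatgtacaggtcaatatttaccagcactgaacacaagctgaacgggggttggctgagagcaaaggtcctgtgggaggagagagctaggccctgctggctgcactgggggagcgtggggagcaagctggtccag

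The Plaur window holds 1 AP-1 match, TGACTCA, which begins 69 bases before the start, 1 C/EBP match, 2 PU.1 core matches and 3 SP1 matches, of which the last 2 share a base. The Serpinb2 window holds 1 AP-1 match, TGAATCA, which begins 94 bases before the start, and 1 C/EBP match. The Serpinf2 window holds 0 matches to any of the 4 motifs. This window was set by the RefSeq start, and its bases from 75439502 to 75439591 lie within the Serpinf2 span given above. Among 32851 windows of the same length in the table, 6.7% held the AP-1 letters, 9.6% C/EBP, 23.3% the PU.1 core and 32.7% SP1. GC content was 59.6% for Plaur, 32.4% for Serpinb2 and 57.2% for Serpinf2, so these windows also differ in base composition. A match is a description of the letters and says nothing about binding in these cells.

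Because leukocyte and hepatocyte transcripts differed so widely between the groups, members were also expressed per 1000 FPKM of summed markers in the same library. Relative to mature neutrophil markers, Plau was 2.27, 3.74 and 3.38 in GPR35-positive libraries, against 3.04, 3.34 and 1.80 in GPR35-negative libraries. On this scale the groups overlapped (exact two-sided permutation p = 0.5). Plaur was 63.5, 68.4 and 62.3 in GPR35-positive libraries, against 225, 204 and 209 in GPR35-negative libraries, and Serpinb2 was 0.486, 0.397 and 0.475, against 0.975, 1.29 and 1.84. Per unit of neutrophil markers, Plaur and Serpinb2 were therefore lower in every GPR35-positive library, the reverse of their FPKM levels. The summed neutrophil markers were themselves 10.2-fold higher in GPR35-positive libraries, so a gene that rose clearly less falls on this scale. The lower ratios of Plaur and Serpinb2 follow from this and are not a separate result. Per 1000 FPKM of pan-leukocyte markers, Plau was 21.5 ± 4.49 in GPR35-positive and 17.6 ± 4.73 in GPR35-negative libraries, and Plaur was 448 ± 8.72 in GPR35-positive and 1381 ± 63.5 in GPR35-negative libraries (SD, n = 3 each). The pan-leukocyte sum was 9.48-fold higher in GPR35-positive libraries, so the same limit holds for this Plaur ratio. The summed macrophage and monocyte markers were 30.1-fold higher in GPR35-positive libraries, beside 10.2-fold for the neutrophil ones. Per 1000 FPKM of them, Plau averaged 43.0 ± 8.60 in GPR35-positive and 111 ± 25.2 in GPR35-negative libraries, so the direction for Plau depends on which leukocyte list it is set against.

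Relative to hepatocyte and hepatoma markers, Serpinf2 was 13.6, 14.3 and 14.1 in GPR35-positive libraries, against 14.0, 13.7 and 13.2 in GPR35-negative libraries, and the groups overlapped (exact two-sided permutation p = 0.4). Plat averaged 2.28 ± 0.0371 in GPR35-positive and 2.14 ± 0.0760 in GPR35-negative libraries (SD, n = 3 each), a ratio of 1.07. Its values ran from 2.25 to 2.32 against 2.09 to 2.23, with no overlap, the reverse of the Plat FPKM levels. Thbs1, whose FPKM overlapped between the groups, averaged 9.43 ± 1.31 per 1000 FPKM of these markers in GPR35-positive and 6.63 ± 0.623 in GPR35-negative libraries, with no overlap. Plaur was 38.3 ± 0.485 in GPR35-positive and 8.11 ± 1.30 in GPR35-negative libraries on this scale. The summed markers in GPR35-positive libraries were 0.654 of the GPR35-negative sum, so a gene with unchanged FPKM rises on this scale. Plaur was higher and the marker sum lower in every GPR35-positive library, so the Plaur ratio could not overlap. The higher Thbs1 and Plaur ratios are therefore not separate results. The smallest exact p that 3 libraries against 3 allow is 0.1, and of the 18 such ratios computed, those at 0.1 had a Benjamini-Hochberg adjusted p of 0.129 over the 18. A ratio of sums does not show which cells made a transcript, and the part of cell makeup in the members' differences was not tested.

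**Figure D3:**
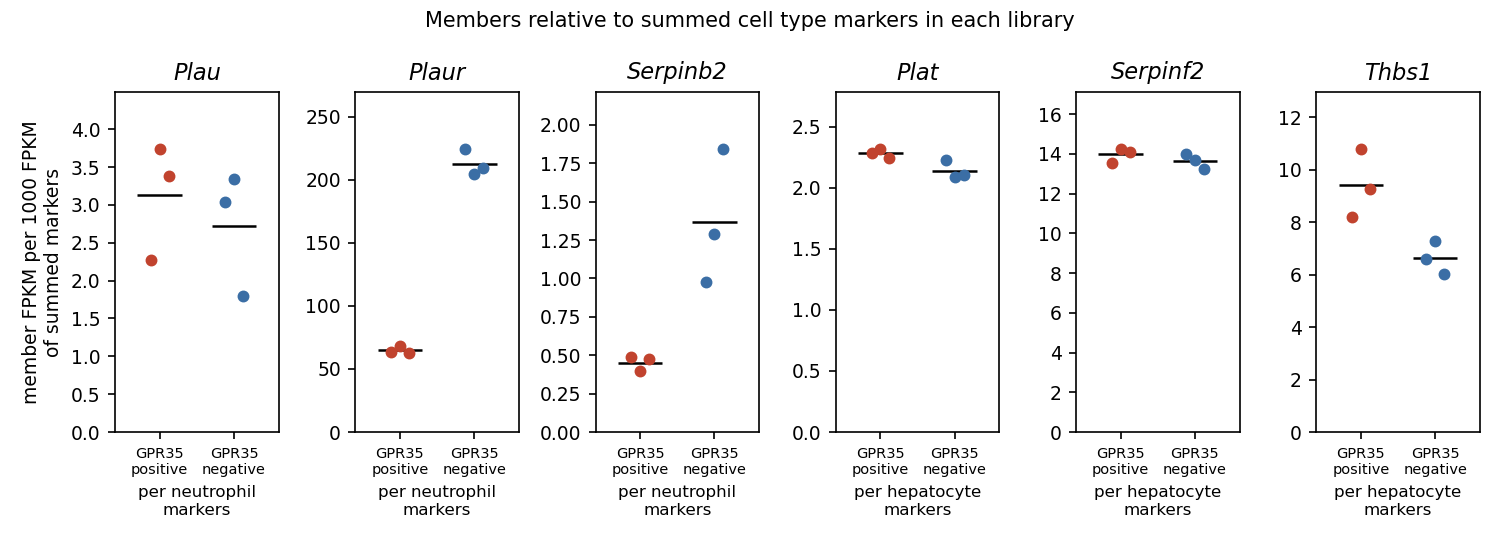
FPKM of 6 members per 1000 FPKM of summed markers in each library, mature neutrophil markers for Plau, Plaur and Serpinb2 and hepatocyte and hepatoma markers for Plat, Serpinf2 and Thbs1, with GPR35-positive libraries left of GPR35-negative ones and bars for means. Plau and Serpinf2 overlap between the groups. On this scale Plaur and Serpinb2 are lower, and Plat and Thbs1 higher, in every GPR35-positive library. The marker sums themselves differed between the groups, which shifts every gene on these scales.

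Beyond the members, 35 other genes of the plasminogen system were listed by role, of which 25 passed the filter. Of these, 10 were called higher and 13 lower in GPR35-positive libraries, against the background of 23.3% and 45.5%, with a median log2 fold change of −0.31 beside −0.19 for all genes. Of the 10, Itgam, Itgb3, Fpr2 and Tgfb1 passed the filter through the GPR35-positive libraries and were not tested when 1 FPKM was required in all 6 libraries, so that 6 were then called higher. Of 14 surface receptors and partners tested, 7 were called higher and 5 lower. Itgb2 and Itgam encode the chains of the integrin Mac-1, a partner of uPAR that also binds plasminogen. Itgb2 had 60.5 ± 2.36 FPKM in GPR35-positive and 6.80 ± 0.409 FPKM in GPR35-negative libraries (SD, n = 3 each, limma adjusted p = 6.21e-10). Itgam had 5.58 ± 0.222 FPKM in GPR35-positive and 0.545 ± 0.0601 FPKM in GPR35-negative libraries. The formyl peptide receptor genes Fpr1 and Fpr2, whose products sense a uPAR fragment, had log2 fold changes of 3.29 and 2.65, the second of a gene under 1 FPKM in all 3 GPR35-negative libraries. Plgrkt, which encodes a plasminogen receptor and was picked out after its values were seen, had 29.0, 31.0 and 30.2 FPKM in the 3 GPR35-positive libraries and 5.89, 6.85 and 4.85 FPKM in the 3 GPR35-negative ones (log2 fold change 2.19, limma adjusted p = 3.00e-08).

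Of the other surface receptors and partners, 5 were called lower and 2 did not pass, while the integrin genes Itgb3 and Itga5 were called higher at log2 fold changes of 0.70 and 0.29. The call of Itga5 (limma adjusted p = 0.0329) ended without a filter (adjusted p = 0.0767) and without GPR35-positive replicate 2, GPR35-positive replicate 3 or GPR35-negative replicate 3 (adjusted p = 0.128, 0.0519 and 0.0958). Both were named after their values were seen. S100a10, which with annexin A2 forms a plasminogen-binding complex, had 492 ± 22.8 FPKM in GPR35-positive and 741 ± 18.9 FPKM in GPR35-negative libraries (SD, n = 3 each, limma adjusted p = 3.09e-05). Its partner gene Anxa2 had 114 ± 6.93 FPKM in GPR35-positive and 117 ± 4.11 FPKM in GPR35-negative libraries, with a log2 fold change of −0.04 that turned to 0.16 with median-of-ratios scaling and 0.18 with limma-voom and passed in none of these fits. Eno1, which encodes the plasminogen-binding enzyme enolase 1 and has near-identical copies in the genome, had a log2 fold change of −0.12 that turned to 0.08 with median-of-ratios scaling and 0.10 with limma-voom, and it did not pass either. The integrin genes Itga3, Itgav and Itgb1 and the growth factor receptor gene Egfr were called lower, with log2 fold changes of −0.95, −0.42, −0.33 and −0.56. Under median-of-ratios scaling, Itgav and Itgb1 no longer passed (limma adjusted p = 0.0847 for Itgav and 0.290 for Itgb1).

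Clearance receptors, which take up serpin-bound activators, went both ways. Lrp1 and Vldlr were called lower, with log2 fold changes of −0.45 and −0.67, and Igf2r, whose product binds uPAR and plasminogen, was called higher at 1.21. Among other inhibitors, Serping1, the gene of C1 inhibitor, was the single gene tested and had 7.96 ± 0.672 FPKM in GPR35-positive and 4.64 ± 0.516 FPKM in GPR35-negative libraries (SD, n = 3 each, limma adjusted p = 0.000203). Hgfac, which encodes an activator of hepatocyte growth factor, was the single gene tested among contact and growth factor activators and was called lower at −0.93.

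Of 6 substrates tested, 5 were called lower and 1 higher, against 45.5% and 23.3% of all genes tested. The fibrinogen chain genes Fga, Fgb and Fgg had log2 fold changes of −0.37, −0.43 and −0.31, and Fgb, the most abundant, had 556 ± 50.8 FPKM in GPR35-positive and 749 ± 66.4 FPKM in GPR35-negative libraries (SD, n = 3 each). Fn1, the fibronectin gene, had 67.7 ± 6.66 FPKM in GPR35-positive and 130 ± 18.7 FPKM in GPR35-negative libraries (log2 fold change −0.93, limma adjusted p = 4.79e-05). Tgfb1, whose latent product plasmin can release, was called higher at 0.61. Vtn, the vitronectin gene, was called lower at −0.34 (limma adjusted p = 0.0231), a call that ended under median-of-ratios scaling (adjusted p = 0.248), with limma-voom (adjusted p = 0.345), without a filter, and without GPR35-negative replicate 1, GPR35-positive replicate 1 or GPR35-positive replicate 2. Median-of-ratios scaling also ended the call of Fgg (adjusted p = 0.272), and with limma-voom none of the 3 fibrinogen genes passed (adjusted p = 0.0908, 0.0575 and 0.400 for Fga, Fgb and Fgg). Hgf, the gene of hepatocyte growth factor, did not pass the filter, with 0.728 ± 0.108 FPKM in GPR35-positive and 0.0778 ± 0.0399 FPKM in GPR35-negative libraries.

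**Figure D4:**
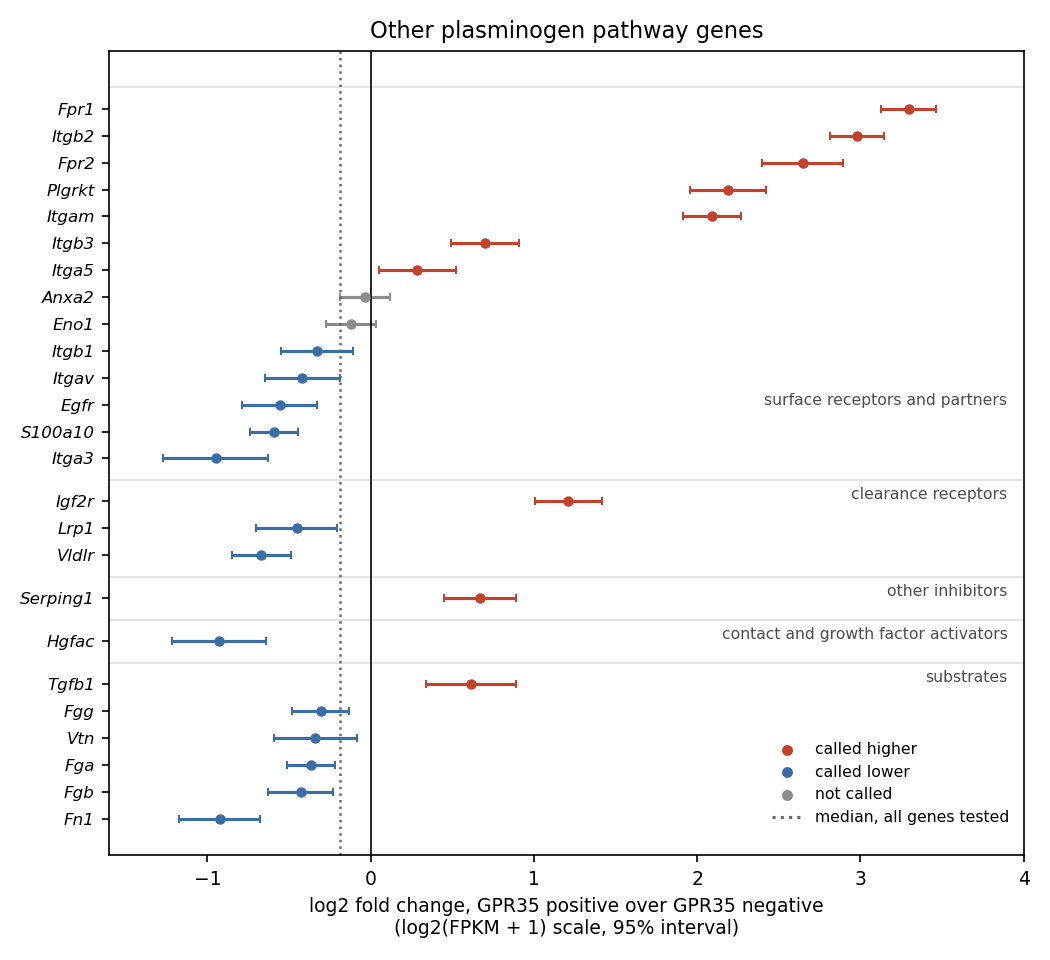
Log2 fold changes of 25 other plasminogen pathway genes by role, GPR35-positive over GPR35-negative libraries, on the log2(FPKM + 1) scale with 95% intervals from limma and the median of all genes tested as a dotted line. Fpr1 at 3.29 and Itgb2 at 2.98 lie farthest to the right, and Itga3 at −0.95 lies farthest to the left.

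The tested genes whose values ran closest to each called member were found by the distance between log2(FPKM + 1) profiles over the 6 libraries, each centred on its own mean, among 9796 protein-coding genes with a symbol. For Plau these were Osm, the oncostatin M gene, at a distance of 0.325, Cd33 at 0.459 and Emilin2 at 0.463. Their means were 148, 44.0 and 41.8 FPKM in the 3 GPR35-positive libraries and 17.5, 4.28 and 4.80 FPKM in the 3 GPR35-negative ones, so each was also far higher in the GPR35-positive group. For Plaur they were Tmed1, Marcks and Pfkfb4 at 0.116 to 0.149, and for Serpinb2 they were Plekho1, Cryba4 and Ier5 at 0.189 to 0.200. For Serpinf2 they included Plpp3 at 0.0618 and the transferrin gene Trf at 0.0624, and for Plat they were Trove2, Tst and Smyd4 at 0.0391 to 0.0437. With 2 groups, such distances mainly rank genes by how far the groups lay apart.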

How the data were processed

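RNA-seq values of 6 libraries, 3 GPR35-positive and 3 GPR35-negative by their titles, were used. FPKM were deposited in a single table, per the file headers, and no value column was left out. Per the labels' protocols, Trizol served for RNA extraction and the NEBNext Ultra II kit for library preparation. The tools that the submitters' processing notes list, without roles, are HTSeq 0.9.1, HISAT2 2.1.0, fastp 0.22.0 and DESeq 1.38.3. The notes give the human build GRCh38, although the gene IDs are mouse Ensembl IDs. The sources used here state neither the annotation nor the strand setting nor the sorting.

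Symbols, positions and exon lengths came from GENCODE M21 (GRCm38), which matched 21902 of 21959 IDs. With these lengths, 97.7% of values above 0 were whole reads within 0.02 reads, which gave the library depths. Replicates differed by more than sampling noise (mean chi-square per gene of 4.43 to 17.9).

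A gene was tested if 3 or more libraries held at least 1 FPKM. The test was limma-trend (limma 3.58.1, R 4.3.3) on log2(FPKM + 1), two-sided, group as the only term, Benjamini-Hochberg adjusted over 10060 genes at 0.05, and was first tried on simulated data. It was repeated with a pseudocount of 0.1, 2 other filters, median-of-ratios scaling, limma-voom on the recovered reads with TMM factors, the replicate number as a block, a minimum change of 2-fold, and 1 library left out at a time. Ratios to markers were compared by exact permutation. Members, gene lists, motifs and alternatives were chosen with earlier results of these data known. Named genes are the 8 members, up to 4 per role list with the smallest p, the genes that make up counts of 5 or fewer, and the 3 nearest profiles per called member. Gpr35 was named as a check of the labels. The marker genes Pecam1, Eng, Cdh5, Acta2, Pdgfra, Ppbp, Pf4, Tubb1, Gp1bb and Ptprc were named outside this rule. One gene that this rule takes is not reported here. Python 3.11.15, pandas 2.3.3, numpy 2.4.6 and matplotlib 3.10.9 were used.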

Additional observations from a re-analysis of the deposited data

How the results depend on the processing

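Plau, Plaur and Serpinb2 were called higher and Plat and Serpinf2 lower under each of the 12 alternatives fitted for them (log2 fold changes of 2.86 to 3.77, 1.52 to 1.86, 1.19 to 2.02, −0.54 to −0.30 and −0.59 to −0.36). With a 2-fold minimum, 3 members were higher and 0 lower, and 6 other pathway genes were higher and 0 lower. With 1 FPKM required in all 6 libraries, 6 other pathway genes were higher, since fewer were tested, and Plg was not tested. With limma-voom, 7 were lower. The log2 fold change of Thbs1 turned to 0.089 with median-of-ratios scaling and 0.11 with limma-voom. The all-gene median moved up as well, from −0.19 to −0.03 and −0.01 in these fits. The cause of the turn was not tested. Leaving out 1 library gave 3 members higher and 2 to 3 lower (3 without GPR35-positive replicate 2, where Plg passed), and log2 fold changes of −0.38 to −0.16 for Plg and −0.020 to 0.073 for Serpine2. Over all genes, 2342 were higher and 4575 lower, against 2913 and 2401 with median-of-ratios scaling and 3039 and 2229 with limma-voom.

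Deviations of same-numbered libraries from their group means correlated at −0.00, 0.40 and −0.06, and not every library correlated best with its own number. The value of 0.40, for replicate 2, was the highest of all pairs between the groups. With 3 libraries per group, these values cannot decide whether same-numbered libraries shared an origin. With the replicate block 3 members were higher and 3 lower, as Plg passed at −0.25 (adjusted p = 0.0493). At this depth the levels of Plg, Serpine2 and Serpinb2 rest on 43 to 220 reads a library.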

Other observations

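The balance between members was also read from ratios of their FPKM. The FPKM ratio of the receptor gene Plaur to its ligand gene Plau was 28.0, 18.3 and 18.4 in GPR35-positive libraries, against 73.9, 61.1 and 116 in GPR35-negative libraries. The receptor transcript thus exceeded that of its ligand in all 6 libraries, and by less in the GPR35-positive ones. The FPKM ratio of the urokinase gene Plau to the tPA gene Plat was 0.593, 0.916 and 0.920 in GPR35-positive libraries, against 0.0571, 0.0633 and 0.0279 in GPR35-negative libraries, a 16.4-fold higher mean. Set against the pan-leukocyte gene Ptprc, which encodes CD45, Plaur was 34.0, 40.0 and 39.4 in GPR35-positive libraries, against 105, 91.6 and 96.8 in GPR35-negative libraries. None of these ratios overlapped between the groups, and each exact two-sided permutation p was 0.1, the smallest that 3 against 3 allows. The Benjamini-Hochberg adjusted p was 0.129 over the 18 ratios computed. Plau was higher and Plat lower in every GPR35-positive library, so their ratio could not overlap and is not a separate result. In mean FPKM, Ptprc was 8.06-fold and Plau 11.4-fold higher in GPR35-positive libraries, beside 3.09-fold for Plaur. The lower ratios of Plaur to Plau and to Ptprc follow from these levels.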
